A study of Mus musculus with 3 samples.

Results

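Goblet cells of the mouse small intestine are described here from before birth to 1 week after it. A cell was counted as a goblet cell when it held at least 3 unique molecular identifiers (UMIs, each standing for 1 captured transcript) of Epcam, 5 of Muc2 and 2 of Fcgbp, fewer than 5 of Chga and Chgb together, and fewer than 10 of Defa30. This rule found 847 goblet cells among 28436 cells. Of these, 33 came from embryonic stage E15.5, 204 from E17.5 and 610 from postnatal day 7 (P7). The cells were thus chosen by measured levels of Epcam, Muc2, Fcgbp, Chga, Chgb and Defa30.

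The study profiled the intestine across these stages to follow how the gut lengthens. Each stage was 1 library of wild-type, untreated mice, made with a droplet method that reads the 3′ end of transcripts. Epithelium and mesenchyme were dissociated separately, joined again, and sorted as live Epcam-positive cells and as live cells lacking Epcam, the endothelial marker CD31 and the leukocyte marker CD45. Strain, sex and the number of animals behind a library are not given in the sources used here. With 1 library per stage there was no test between stages: every interval below is a 95% interval that covers counting error only, stage cannot be told apart from library, and cells are not replicates.

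Goblet cells are secretory cells that arise from the same precursors as Paneth and enteroendocrine cells, through the transcription factors Atoh1 and Spdef. They fold, glycosylate and pack the gel-forming mucin Muc2 into apical granules, and release it with proteins that cross-link, trim or populate the mucus. The volume of this cargo places a heavy load on the endoplasmic reticulum (ER), and goblet cells carry a sensor for it, Ern2.

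Goblet cells were 2.30% of the Epcam cells at E15.5 (33 of 1435, Clopper-Pearson interval 1.59 to 3.21%), 12.2% at E17.5 (204 of 1677, 10.6 to 13.8%) and 9.59% at P7 (610 of 6363, 8.87 to 10.3%). The rule counts absolute UMIs, so the depth of a cell bears on it. Goblet cells held a median of 12837 UMIs at E15.5, 11277 at E17.5 and 10570.5 at P7, against 21364.5, 17056 and 16351 in the other Epcam cells. When the rule was read after thinning every cell to 5000 UMIs, the shares were 0.445%, 8.02% and 7.34%, so E15.5 was the lowest stage under both readings, but only 6 cells remained there. The limits on Chga with Chgb and on Defa30 removed 2 cells and 1 cell at E17.5, 9 and 104 cells at P7, of which 3 exceeded both, and none at E15.5. At E15.5, 17 of the 33 goblet cells lay just inside the Muc2 limit (5 or 6 UMIs) and held 13466 CPM of Tff3, and the 19 Epcam cells just outside it (3 or 4 UMIs) held 11349 CPM. In the same order the values were 17522 (16 cells) and 12650.5 CPM (20 cells) at E17.5, and 7537 (41 cells) and 5132 CPM (37 cells) at P7. CPM is a gene's summed UMIs per 1000000 UMIs of the cells summed. Scrublet, a doublet caller, marked none of the goblet cells at E15.5, 21 at E17.5 (10.3%) and 85 at P7 (13.9%). Of all Epcam cells it marked 5.44%, 9.78% and 5.86%, in the same order. All cells of the rule were kept. The deposited barcode lists are identical for the 3 libraries and could not be used to count barcodes that libraries share.

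The genes that chose the cells are given as a description. Muc2, the gel-forming mucin, stood at 489.9 CPM at E15.5, 1338 at E17.5 and 4139 at P7. Fcgbp, a large protein that binds to the mucin gel, stood at 5094 CPM at E15.5, 8852 at E17.5 and 12475 at P7. Both summed levels were higher at each later stage. The median cell held 5998 CPM of Fcgbp at E15.5, 5546 at E17.5 and 7714 at P7, so it did not rise between E15.5 and E17.5. Within a stage the cells differed widely: Muc2 ran from 129 to 118726 CPM at P7 with a median cell of 2913, and from 170.0 to 1419 CPM at E15.5 with a median cell of 532.

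The label was checked on Tff3 and Spink4, goblet markers that the rule did not use. Tff3, the trefoil peptide of intestinal mucus (chromosome 17, 31125306 to 31129646, GRCm38), stood at 14683 CPM at E15.5, 23090.2 at E17.5 and 24038 at P7, against 470.0, 649 and 361 CPM in the other Epcam cells and 6.24, 14.5 and 49.8 CPM in a mesenchymal reference of cells with no Epcam UMI and 10 or more Col3a1 UMIs. Every goblet cell of every stage held Tff3 UMIs. Spink4, a small Kazal-type protein of goblet granules (chromosome 4, 40920052 to 40931395), stood at 7011 CPM at E15.5, 13032 at E17.5 and 15140.2 at P7, against 125, 259 and 580.0 CPM in the other Epcam cells. It was present in every goblet cell before birth and in 98.5% at P7. After thinning to 5000 UMIs, Spink4 was found in 98.0% of goblet cells at P7, in 20.7% of other Epcam cells and in 22.7% of the mesenchymal reference, which should lack it and where its level was 3.40, 10.2 and 55.3 CPM by stage.

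Which genes set goblet cells apart from the other Epcam cells was asked at each stage, as a description within 1 library. A gene was counted as higher or lower when the CPM ratio was at least 1.5-fold and its counting interval excluded 1. By this rule 10.8% of 13606 genes were higher in goblet cells at E15.5, 16.2% of 13638 at E17.5 and 13.8% of 15528 at P7, and 7.71% were lower at E15.5 and 16% at P7. Of the 50 genes with the highest ratio at each stage, 29 were among the 50 at all stages. They included the products Tff3, Spink4, Agr2, Clca1, Zg16, Ccl6, Ccl9, Klk1, Mptx1 and Rnase1, the transcription factors Atoh1, Spdef and Creb3l4, the ER proteins Ern2, Pdia5 and Qsox1, the glycosyltransferases Galnt12 and Gcnt3, and the granule proteins Rab27b, Sytl2 and Bcas1. Rep15, which binds the recycling-endosome protein Rab15, was 59.1, 46.7 and 79.6 times higher in goblet cells at E15.5, E17.5 and P7. Ramp1, a receptor-modifying protein that forms the receptor for the neuropeptide CGRP, was 41.9, 37.2 and 37.0 times higher. These ratios are against all other Epcam cells. At P7 the 125 Epcam cells above the Defa30 limit, which are among those others, held 1777 CPM of Rnase1 against 779.5 in goblet cells, 639 against 617 of Ccl9 and 415 against 459.8 of Ramp1.

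The gel-associated products were already abundant in the E15.5 cells. Of the 15 mucus and secreted products counted, the rule genes left out, 10 were higher and 4 lower in the step from E15.5 to E17.5 (median 0.80), where 4.29% of 9423 genes tested were higher, 8.81% lower and the median was -0.14. Between E17.5 and P7, 5 of 16 were higher and 4 lower (median 0.14), where 14.6% of 11758 genes were higher, 9.77% lower and the median was 0.07. Clca1, a metalloprotease that processes the mucus (chromosome 3, 145003817 to 145032776), stood at 1935 CPM at E15.5, 3372 at E17.5 and 3373 at P7, a log2 difference of 0.80 between E15.5 and E17.5 (the first step, interval 0.71 to 0.90) and of 0.00 between E17.5 and P7 (the second step, -0.03 to 0.04). Agr2, the protein disulfide isomerase that mucin folding needs (chromosome 12, 35992907 to 36004087), stood at 7767 CPM at E15.5, 12353 at E17.5 and 8574 at P7. Tff3 differed by 0.65 (0.62 to 0.69) in the first step and by 0.06 (0.04 to 0.07) in the second, and Spink4 by 0.89 (0.85 to 0.94) and 0.22 (0.20 to 0.23). In summed level these 4 products stood lower at E15.5 than at E17.5 and within 1.5-fold between E17.5 and P7. The median cell held 2368 CPM of Clca1 at E15.5, 2345 at E17.5 and 1681 at P7, so Clca1 did not rise there. In the same order it held 19693, 23881 and 23167 of Tff3, 8132, 13652 and 15441.5 of Spink4, and 8648, 13396 and 8578 of Agr2. With a stricter rule of 10 Muc2 and 5 Fcgbp UMIs, which kept 9 cells at E15.5, the first-step values for Tff3, Clca1 and Agr2 were 0.47, 0.28 and 0.44, below 1.5-fold, and that of Spink4 was 1.03.

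Zg16, a lectin-like mucus protein that binds Gram-positive bacteria (chromosome 7, 127050156 to 127087328), rose at both steps, from 169 CPM at E15.5 through 526 at E17.5 to 1729.8 at P7. It was held by a minority of the cells. Zg16 UMIs were found in 27.3%, 31.4% and 28.2% of goblet cells, or 22.6%, 23.9% and 24.4% after thinning, and in 1.33% of the thinned mesenchymal reference at P7. The share of cells thus moved little while the level rose 3.10-fold and 3.29-fold, and the highest cell reached 2937 CPM at E15.5, 25766 at E17.5 and 102978 at P7. The 5 highest cells held 61.6% of all Zg16 UMIs at E17.5 and 31.0% at P7. In the other Epcam cells Zg16 was at 2.59, 0.195 and 9.61 CPM, beside 7.47 CPM in the mesenchymal reference at P7. With the stricter rule the first-step log2 value was 4.92 in place of 1.63, and 5 cells held 94.5% of the UMIs at E15.5.

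Further secreted proteins varied by stage in the same cells. Guca2a, the precursor of the peptide guanylin, stood at 3302 CPM at E15.5, 4382 at E17.5 and 2785 at P7. Reg4, a secreted lectin, rose at both steps, from 263 CPM at E15.5 through 573 at E17.5 to 1071 at P7. Rnase1, a secreted ribonuclease, stood at 142 CPM at E15.5, 506 at E17.5 and 779.5 at P7. Klk1, a kallikrein protease, stood at 194 CPM at E15.5, 439.6 at E17.5 and 354 at P7, and Wfdc2, a secreted protease inhibitor, at 48.4 CPM at E15.5, 19.9 at E17.5 and 10.3 at P7. Reg4 and Rnase1 were higher at each later stage, and Wfdc2 lower.

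**Figure D1:**
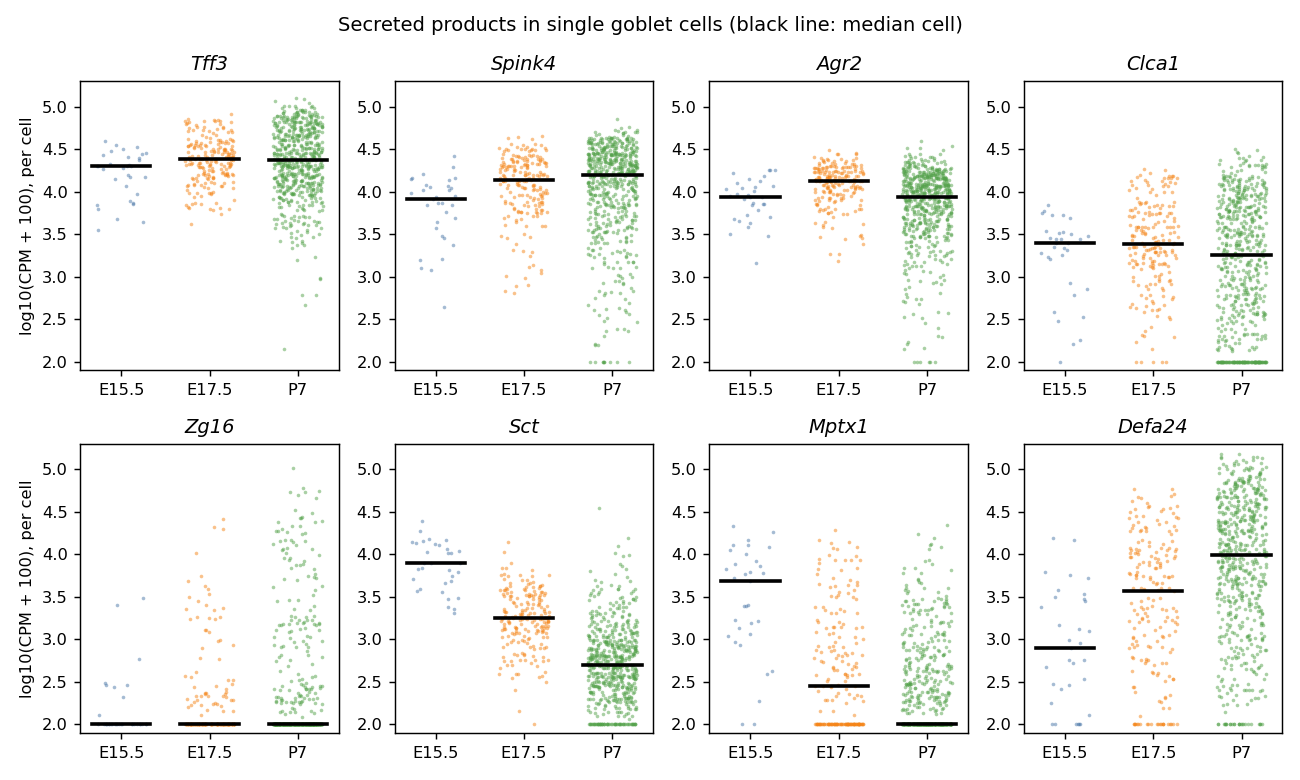
Level of 8 secreted products in single goblet cells by stage, as log10 of CPM plus 100, where each point is 1 cell and the black line is the median cell. Tff3 and Spink4 are high in nearly all cells at every stage, Zg16 is at 0 in the median cell of each stage, Sct and Mptx1 step down, and Defa24 steps up.

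Other products stepped down. Sct, the hormone secretin and in the adult gut a product of enteroendocrine cells, was in every goblet cell at E15.5, where the lowest cell held 1914 CPM, the median cell 7714 and the highest 24731. The summed level was 7065 CPM at E15.5, 1855 at E17.5 and 575 at P7, and it fell 3.81-fold in the first step (log2 -1.93, -1.99 to -1.87) and 3.23-fold in the second (log2 -1.69, -1.75 to -1.63). At E15.5 it exceeded the level in Epcam cells with 5 or more Chga and Chgb UMIs, which held 5536 CPM at E15.5 (38 cells), 24324 at E17.5 (95 cells) and 9584 at P7 (225 cells). In the other Epcam cells as a whole Sct rose in the first step, from 330.2 to 1047 CPM. The 16 genes of the enteroendocrine list, Sct among them, summed to 7109 CPM in goblet cells at E15.5, of which Sct alone held 7065, and 7 of the 16 were at 0.

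Mptx1, a pentraxin known from mucosal and Paneth cells, fell from 4111 CPM at E15.5 through 1342 at E17.5 to 549 at P7, and was found in 93.9%, 59.3% and 46.1% of the cells. It remained 149, 103 and 55.2 times above the other Epcam cells. The Epcam cells above the Defa30 limit held 439 CPM of Mptx1 at P7. Iapp, the islet hormone amylin, was at 108 CPM at E15.5, 59.3 at E17.5 and 0.131 at P7, and Serpina1c, a protease inhibitor of the alpha-1-antitrypsin family with near-identical copies in the genome that short tags may not separate, was at 114 CPM at E15.5, 191 at E17.5 and 0 at P7. Both were absent or nearly so at P7, with 1 Iapp UMI and no Serpina1c UMI in 610 cells, at least 485-fold lower for Serpina1c when set against a floor of 3 UMIs over the group. Serpina1c was also lost from the other Epcam cells, where it went from 34.3 to 0.102 CPM. Itln1, an intelectin that binds microbial glycans, was at 63.3 CPM at E15.5, had 4 UMIs over all 204 cells at E17.5 and stood at 183 CPM at P7, where 26.2% of goblet cells held it and cells above the Defa30 limit held 5468 CPM. Without the limits on Chga, Chgb and Defa30 its second-step log2 value was 9.19 in place of 6.93.

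**Figure D2:**
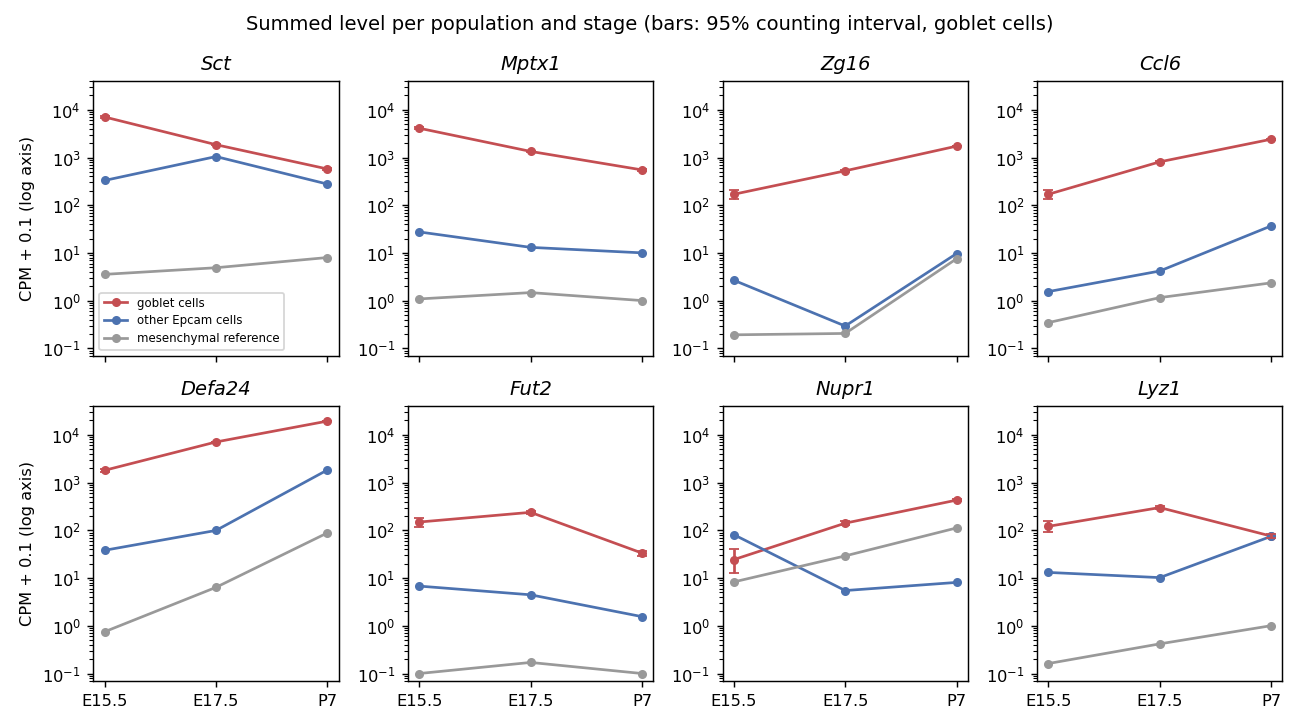
Summed level of 8 genes by stage in goblet cells, in the other Epcam cells and in the mesenchymal reference, as CPM plus 0.1 on a log axis, with 95% counting intervals for goblet cells. Sct and Mptx1 fall in goblet cells at both steps while Zg16, Ccl6, Defa24 and Nupr1 rise, and Lyz1 is at the same level in goblet and other Epcam cells at P7.

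Of the 9 Paneth markers counted, 8 were higher and 1, Itln1, lower in the first step (median 1.80), beside 4.29% and 8.81% of all genes tested. In the second step 5 were higher and 2, Lyz1 and Defa26, lower (median 1.45), beside 14.6% and 9.77% of all genes tested. Defa24, an alpha-defensin typical of Paneth cells (chromosome 8, 21734494 to 21735471), rose from 1807 CPM at E15.5 through 7099 at E17.5 to 19429 at P7. At every stage some goblet cells held none of it, while the median cell held 689 CPM at E15.5, 3651 at E17.5 and 9652 at P7. The highest cell held 15643, 58861 and 151149 CPM in the same order, so the ranges of the stages overlap. After thinning it was found in 93.6% of goblet cells at P7, in 30.4% of other Epcam cells and in 29.1% of the mesenchymal reference. With the stricter rule its first-step log2 value was 3.49 in place of 1.97, and without the limits its second-step value was 2.04 in place of 1.45. Alpha-defensins are near-identical copies, so how the UMIs were divided between Defa24 and its relatives is uncertain. The Defa30 limit of the rule removes cells with the highest defensin levels: the 125 Epcam cells above it at P7 held 83896 CPM of Defa24, 21583 of Spink4, 8253 of Tff3, 1336 of Muc2, 347 of Clca1 and 3541 of the Paneth lysozyme Lyz1. Against these cells, goblet cells at P7 had less Defa24, Lyz1 and Spink4, and more Muc2, Tff3 and Clca1. Lyz1 in goblet cells went from 299.7 CPM at E17.5 to 75.5 at P7 (log2 -1.99, -2.15 to -1.83), and without the limits on Chga, Chgb and Defa30 the log2 value was 0.091.

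Ccl6, a CC chemokine, rose 4.79-fold and then 2.98-fold, to 2413 CPM at P7, against 36.8 CPM in the other Epcam cells. Those above the Defa30 limit held 1431 CPM of Ccl6 at P7. Its carriers grew from 42.4% to 56.9% and 81.3% of goblet cells. With the stricter rule the first-step log2 value of Ccl6 was 1.17 in place of 2.26. Ccl9, a chemokine of the same family, stood at 749 CPM at E15.5, 1111 at E17.5 and 617 at P7. Ang4, an antimicrobial ribonuclease, rose to 667 CPM at P7 from 97.9 at E17.5, and Nupr1, a stress-induced chromatin protein, from 141 to 429. Of the 16 defence and immune genes, 9 of the 12 counted were higher and 2 lower at P7 than at E17.5 (median 1.56). Of all genes tested in this step, 14.6% were higher and 9.77% lower. In the other Epcam cells 9 of the 16 were higher and 2 lower (median 1.01), where 18.9% of genes tested were higher. Pigr, which carries secretory immunoglobulins across the epithelium, rose from 49.9 to 424 CPM, and Lypd8, a secreted protein that binds flagellated bacteria, from 3226 to 7444. The lectin Reg3b rose from 5.63 to 195 CPM and Reg3g from 0 to 39.0 CPM, at least 34.7-fold. The 5 highest cells held 61.7% of the Reg3b UMIs. In the other Epcam cells Reg3b went from 5.53 to 122 CPM and Reg3g from 2.41 to 30.1 CPM.

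Most factors of goblet fate did not pass the 1.5-fold rule at either step. Of the 22 counted, none was higher and 3 were lower in the first step (median 0.13), beside 4.29% and 8.81% of all genes tested. At P7 none was higher than at E17.5 and 1 was lower, beside 14.6% and 9.77% of all genes tested. Atoh1, the basic helix-loop-helix factor that opens the secretory fate, stood at 130.4 CPM at E15.5, 149 at E17.5 and 116 at P7, Spdef, which drives goblet maturation, at 197 CPM at E15.5, 242 at E17.5 and 172 at P7, and Creb3l1 and Creb3l4, membrane-bound factors of secretory capacity, at 199, 214 and 188 and at 125, 168 and 114 CPM in the same order. Foxa3, Klf4 and Xbp1 were likewise within 1.5-fold at both steps. Atoh1 was 22.7, 18.4 and 31.0 times higher in goblet cells than in the other Epcam cells. The Epcam cells above the Defa30 limit held 67.9 CPM of Atoh1 at P7, against 116 in goblet cells. Neurog3, the endocrine counterpart, was at 0, 1.13 and 0.393 CPM in goblet cells against 16.8, 16.7 and 5.26 CPM in the other Epcam cells. Gfi1, a zinc finger factor of secretory cells, had a log2 value of 0.79 in the first step that did not pass the rule. Those called lower were Foxa1, Foxa2 and Cdx2 in the first step, where Foxa2 fell from 48.4 to 27.4 CPM (log2 -0.82, -1.49 to -0.12), and Bhlha15, a factor of granule packing, at 18.6 CPM at E15.5, 15.0 at E17.5 and 9.03 at P7, in the second. With the stricter rule the first-step log2 values of Spdef, Creb3l1 and Foxa2 were -0.41, -0.65 and -1.74 in place of 0.29, 0.10 and -0.82.

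Muc2 and Fcgbp, which chose the cells, and Sct, the fetal product described above, carry in their promoters a form of E-box (CAGCTG, a palindrome, so both strands are searched at once) of the kind bound by basic helix-loop-helix factors such as Atoh1. It is shown in capitals in the 250 bases upstream of the start, 5′ to 3′ on the gene's strand, from RefSeq (GRCm38.p6).
Muc2, chr7:141690090-141690339, plus strand: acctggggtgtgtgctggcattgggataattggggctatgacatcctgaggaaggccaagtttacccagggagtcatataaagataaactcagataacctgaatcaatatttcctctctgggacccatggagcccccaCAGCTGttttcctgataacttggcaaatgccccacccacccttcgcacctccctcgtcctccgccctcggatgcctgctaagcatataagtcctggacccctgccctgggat
Fcgbp, chr7:28070986-28071235, plus strand: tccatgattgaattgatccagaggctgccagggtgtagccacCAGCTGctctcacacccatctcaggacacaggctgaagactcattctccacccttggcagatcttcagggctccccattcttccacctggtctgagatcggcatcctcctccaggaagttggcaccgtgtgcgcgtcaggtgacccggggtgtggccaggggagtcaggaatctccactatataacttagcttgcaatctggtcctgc
Sct, chr7:141279134-141279383, minus strand: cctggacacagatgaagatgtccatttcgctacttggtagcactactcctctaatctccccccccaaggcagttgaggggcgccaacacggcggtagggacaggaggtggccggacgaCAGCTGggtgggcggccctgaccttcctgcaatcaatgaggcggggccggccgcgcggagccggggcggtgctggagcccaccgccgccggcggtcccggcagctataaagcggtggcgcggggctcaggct
Each of the 3 holds 1 match. The letters are common: 13.0% of 32851 promoters hold them. So do 10 of the 53 promoters found for 34 of the 50 genes highest in goblet cells at P7 (18.9%). For 19 of the 23 fate factors it is 8 of the 27 found (29.6%). Other lists lay on both sides of 13.0%. The share was 40% for dissociation and stress genes (6 of 15), 11.4% for O-glycosylation and sulfation (5 of 44) and 4.17% for ER entry (1 of 24). A match describes letters of the sequence and is not a binding site.

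Genes of mucin glycosylation were higher in goblet cells at every stage. Of the genes for O-glycosylation and sulfation, 33 of 44 counted were higher in goblet cells than in the other Epcam cells at E15.5 (median 2.04, all genes 0.25), 30 of 42 at E17.5 (median 1.85, all genes -0.03) and 29 of 44 at P7 (median 1.74, all genes -0.03). Among all genes tested 10.8%, 16.2% and 13.8% were higher in goblet cells, by stage. In the first step 4 of 39 glycosylation genes were higher and none lower, beside 4.29% and 8.81% of all genes. In the second 4 of 41 were higher and 2 lower, beside 14.6% and 9.77%. Galnt12, which adds the first sugar, stood at 255 CPM at E15.5, 269.7 at E17.5 and 271 at P7, and Gcnt3, which branches the mucin core, at 171 CPM at E15.5, 245 at E17.5 and 205 at P7. Chst4, a sulfotransferase, stood at 29.8 CPM at E15.5, 34.1 at E17.5 and 55.1 at P7. Fut2, the fucosyltransferase behind the terminal fucose of intestinal mucus, fell 7.17-fold between E17.5 and P7 (log2 -2.84, -3.06 to -2.63), from 238 to 33.2 CPM, and was at 6.69, 4.36 and 1.45 CPM in the other Epcam cells. St3gal1, the highest member in the first step (log2 2.46), changed sign with the rule read at 5000 UMIs, as did Kdelr3, Dnajb9 and Sytl4 of the lists below, which were also higher in that step. At E15.5 these 4 had 1, 20, 7 and 2 UMIs, in the order named.

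Entry into the ER and folding there were likewise higher than in the other Epcam cells at all stages, by smaller factors. Of all genes tested, 10.8%, 16.2% and 13.8% were higher in goblet cells at E15.5, E17.5 and P7. Of the 30 genes of ER entry and N-glycosylation, 21 were higher in goblet cells at E15.5, 18 at E17.5 and 18 at P7. Sec11c, a subunit of signal peptidase, led with log2 ratios of 2.90, 2.92 and 2.10, and fell 2.46-fold between E17.5 and P7, to 200.1 CPM. Of the 38 genes of ER folding and the unfolded protein response, 25, 25 and 21 were higher. Ern2, a sensor of ER stress, was 46.1, 40.6 and 35.8 times higher, and Pdia5, a disulfide isomerase, 16.9, 20.9 and 17.6 times. At P7 the Epcam cells above the Defa30 limit held 111 CPM of Ern2 against 160 in goblet cells, and 96.5 of Pdia5 against 129. The general chaperones differed less: Hspa5 (BiP) stood at 1259 CPM at E15.5, 916 at E17.5 and 743 at P7, against 769, 633 and 595 CPM in the other Epcam cells, and Hsp90b1 at 1306 CPM at E15.5, 1022 at E17.5 and 742 at P7, against 1038, 855 and 774 CPM. In the first step, 1 of the 36 folding genes counted was higher and 2 lower, beside 4.29% and 8.81% of all genes tested. In the second, 1 of 37 was higher and 2 lower, beside 14.6% and 9.77%. Pdia5 was the lowest of the list in the second step (log2 -0.94, -1.09 to -0.80).

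Promoters were read for an element known from chaperone genes. The ER stress response element, searched on both strands as CCAAT, any 9 bases and CCACG, is the site through which unfolded protein induces chaperone genes. It was in 9 of the 35 promoters found for 31 of the 38 folding genes (25.7%), a list that holds known targets of this response, and in 37 of all 32851 (0.113%). The 9 genes were Calr, Canx, Creld2, Derl3, Dnajc3, Hsp90b1, Hspa5, Pdia6 and Syvn1. None of the 53 promoters found for the genes highest in goblet cells at P7 held it. The 9 genes had a median log2 ratio of goblet over other Epcam cells of 0.80 at E15.5, 0.64 at E17.5 and 0.29 at P7. By the 1.5-fold rule 3 of the 9 were higher at P7, beside 13.8% of all genes tested. The element is in capitals in 3 of these promoters, of which that of Hsp90b1 has 2 matches, 1 of them on the other strand.
Hspa5, chr2:34771840-34772089, plus strand: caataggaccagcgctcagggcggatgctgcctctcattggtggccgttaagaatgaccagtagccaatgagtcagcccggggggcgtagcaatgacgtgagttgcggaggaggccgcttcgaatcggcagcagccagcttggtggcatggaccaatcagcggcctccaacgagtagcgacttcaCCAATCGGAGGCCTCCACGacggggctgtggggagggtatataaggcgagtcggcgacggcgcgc
Pdia6, chr12:17266339-17266588, plus strand: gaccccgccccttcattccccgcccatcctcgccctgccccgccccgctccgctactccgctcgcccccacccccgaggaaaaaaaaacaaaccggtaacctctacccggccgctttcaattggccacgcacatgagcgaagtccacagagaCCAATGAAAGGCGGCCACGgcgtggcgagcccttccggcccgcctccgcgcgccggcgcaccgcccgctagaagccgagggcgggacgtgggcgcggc
Hsp90b1, chr10:86705445-86705694, minus strand: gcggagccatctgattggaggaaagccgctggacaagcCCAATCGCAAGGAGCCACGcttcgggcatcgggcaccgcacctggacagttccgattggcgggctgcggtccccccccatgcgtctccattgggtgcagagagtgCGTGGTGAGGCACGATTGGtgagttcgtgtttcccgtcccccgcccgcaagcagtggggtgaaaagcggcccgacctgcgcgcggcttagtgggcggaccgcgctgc
A shorter element of the same response, TGACGTGG, searched on both strands and sharing the letters CCACG with the first, was in 0.563% of all promoters and in 4 of the 38 found for ER to Golgi genes (Arf1, Copb1, Kdelr3 and Sec24d).

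Transport and exocytosis genes were compared in the same way. The shares of all genes tested that were higher in goblet cells were 10.8% at E15.5, 16.2% at E17.5 and 13.8% at P7. Of the 37 genes of ER to Golgi transport, 21, 16 and 12 were higher in goblet cells than in the other Epcam cells at E15.5, E17.5 and P7. Kdelr3, which returns ER proteins from the Golgi, led with 2.59, 3.31 and 3.42, and Sec23a, a coat subunit, was the lowest with -1.14, -1.57 and -1.42. Of the 24 granule and exocytosis genes, 17, 19 and 19 were higher, with medians of 2.71, 3.01 and 3.40. Capn9, a calpain of gut epithelium, led at 61.6, 131 and 74.8 times. Nlrp6, an inflammasome sensor known from goblet cells of the crypt opening, was the lowest of the list, with log2 ratios of -1.47, -2.48 and -1.61. Scin, an actin-severing protein, stood at 507 CPM at E15.5, 640.0 at E17.5 and 489 at P7 and Rab27b, a granule GTPase, at 183 CPM at E15.5, 195 at E17.5 and 165 at P7, both within 1.5-fold at each step. Of the 23 counted by step, 3 were higher and 1 lower in the first and 2 higher and 1 lower in the second. Beside them 4.29% of all genes were higher and 8.81% lower in the first, and 14.6% and 9.77% in the second.

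Of the 16 genes of ion and water transport counted, 3 were higher and 4 lower in goblet cells than in the other Epcam cells at E15.5, and 2 were higher and 11 lower at P7. At E17.5, 3 of 15 were higher and 11 lower. Of all genes tested, 10.8% were higher and 7.71% lower at E15.5, and 13.8% and 16% at P7. At E17.5, 2211 of 13638 were higher and 2391 lower. The medians by stage were 0.21, -1.72 and -1.01. Between E17.5 and P7 10 of 15 were higher and 2 lower in goblet cells (median 0.84). Of all genes tested in this step, 14.6% were higher and 9.77% lower. In the other Epcam cells 9 of 16 were higher and 1 lower (median 0.82), beside 18.9% and 18.3% of all genes. The list thus rose in both populations. Cftr, the chloride and bicarbonate channel, stood at 13.0 CPM at E15.5, 6.75 at E17.5 and 27.9 at P7, against 40.4, 50.9 and 56.9 CPM in the other Epcam cells. Kcnq1, a potassium channel, rose 10.3-fold to 19.2 CPM. With the rule read at 5000 UMIs the second-step log2 values of Cftr and Kcnq1 were 3.22 and 2.50 in place of 2.05 and 3.36. Fxyd3, a small regulator of the sodium pump, was among the few higher members, with Car8 at every stage and Slc12a2 before birth, and stood at 12.4, 15.9 and 19.7 times the other Epcam cells. The Epcam cells with 5 or more Chga and Chgb UMIs held 968 CPM of Fxyd3 at E15.5, beside 957 in goblet cells. At P7 the Epcam cells above the Defa30 limit held 624 CPM of Fxyd3, beside 599 in goblet cells. Of the membrane mucins, Muc3a rose at both steps, to 223 CPM at P7, and Muc13 was at 516 CPM at E15.5, 514 at E17.5 and 847 at P7.

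**Figure D3:**
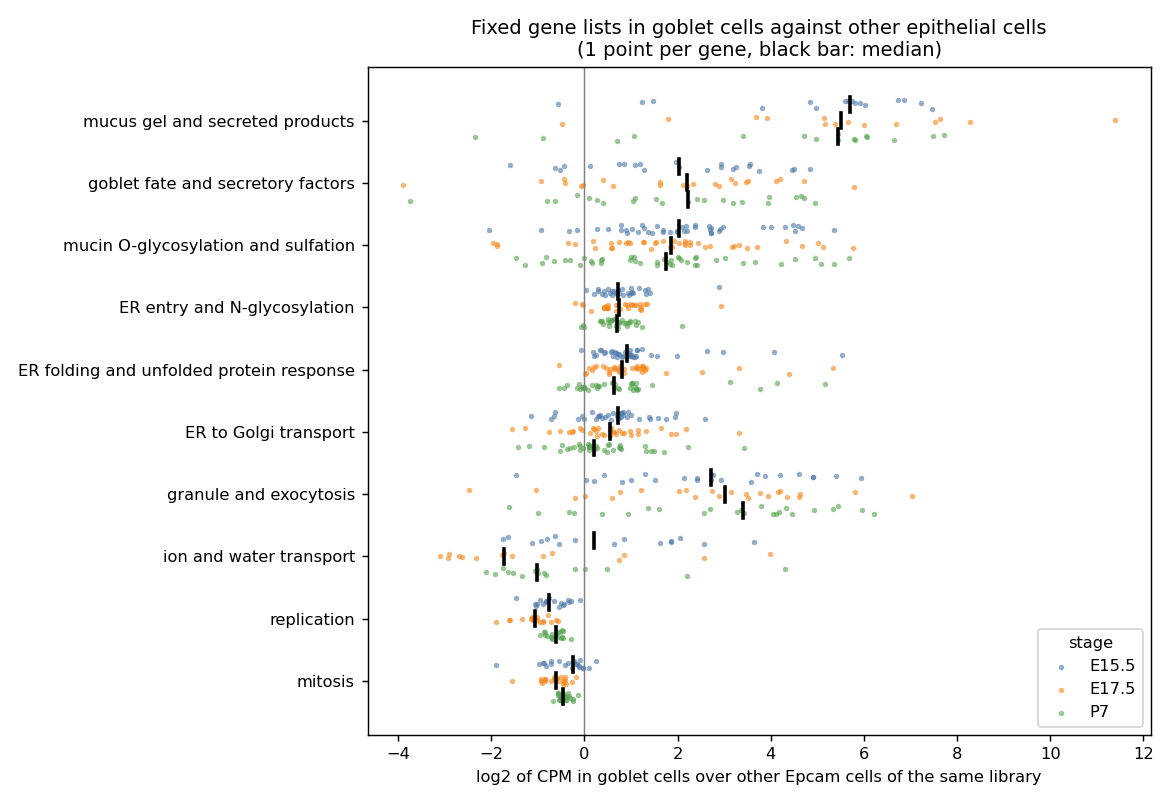
Log2 ratio of CPM in goblet cells over the other Epcam cells for 10 gene lists, 1 point per gene counted, colours by stage and a black bar at the median. Products, fate factors, glycosylation and granule genes lie mostly to the right of 0 at every stage, ER lists lie slightly to the right, and replication and mitosis genes lie to the left.

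Genes of mitosis and replication had lower summed levels in goblet cells than in the other Epcam cells at each stage. The 22 mitosis genes summed to 1781 CPM at E15.5, 1307 at E17.5 and 844 at P7, against 2204, 2019 and 1147 CPM in the other Epcam cells. The 19 replication genes summed to 982, 563 and 536 CPM, against 1619, 1154 and 830.5. Gene by gene, 4 of 22 mitosis genes were lower in goblet cells than in the other Epcam cells at E15.5. It was 12 at E17.5 and 1 at P7. Of the 19 replication genes, 10, 17 and 10 were lower, in the same order. Among all genes tested, 7.71% were lower in goblet cells at E15.5, 2391 of 13638 at E17.5 and 16% at P7. By this rule the mitosis genes did not stand out at P7, where their median was -0.46, beside -0.03 for all genes. In the first step 13 of 19 replication genes were lower (median -0.85) and 4 of 22 mitosis genes (median -0.42). For the second step it was 1 and 14 (medians 0.02 and -0.63), so that most replication genes were not called. None was higher in either step. Among all genes 8.81% were lower in the first and 9.77% in the second. In other Epcam cells, 10 of 19 replication genes and 0 of 22 mitosis genes were lower in the first step (medians -0.64 and -0.24). For the second step it was 4 and 21 there (medians -0.33 and -0.75). Of all genes tested in those cells 11% and 18.3% were lower, by step. In goblet cells Mcm6 of the replication helicase fell from 101 to 36.0 CPM in the first step (log2 -1.48, -1.98 to -0.97). Mki67 in goblet cells stood at 173 CPM at E15.5, 126 at E17.5 and 82.6 at P7. Cdkn1a, an inhibitor of cyclin-dependent kinases, rose from 104 to 186 CPM in the second. With the rule read at 5000 UMIs the first-step value of Mcm6 was -0.82.

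Cells were counted as mitotic when they held 5 or more UMIs of the mitosis list after thinning to 5000 UMIs. The share among goblet cells was 32.3% at E15.5 (10 of 31, 16.7 to 51.4%), 19.8% at E17.5 (39 of 197, 14.5 to 26.1%) and 11.9% at P7 (65 of 546, 9.31 to 14.9%), against 50.7%, 43.5% and 21.3% in the other Epcam cells. Without thinning it was 51.5%, 27% and 18.5%. The intervals for goblet cells at E15.5 and E17.5 overlap. The rule selects on product level, and mitotic goblet cells at E17.5 and P7 held less of several products: with the stricter rule the P7 share was 7.58%, and with the rule read at 5000 UMIs it was 3.81%. In the same thinned cells the mitotic ones at P7 held 7895 CPM of Tff3 against 31742 in the others, 582 against 4659 of Clca1, 64.6 against 2283 of Zg16, 8148 against 19548 of Spink4 and 102 against 215 of Spdef. They held more of the crypt genes Olfm4 (1080.0 against 101) and Lgr5 (83.1 against 13.3), and of Sox4 (105 against 42.8). Hspa5 was at 689 against 771. At E17.5 the mitotic goblet cells also held less Tff3 (17451 against 29387), Clca1 (1831 against 4479.8) and Zg16 (128 against 815), by smaller factors. At E15.5, with 10 mitotic cells, Tff3 was at 12440.0 against 19190.5 CPM, Clca1 at 2220.0 against 2571 and Muc2 at 520.0 against 657, the last 2 with overlapping intervals. Defa24 was higher in these mitotic cells (2840.0 against 1800.0), but before thinning 5 of the 33 goblet cells of E15.5 held 60.7% of its UMIs.

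**Figure D4:**
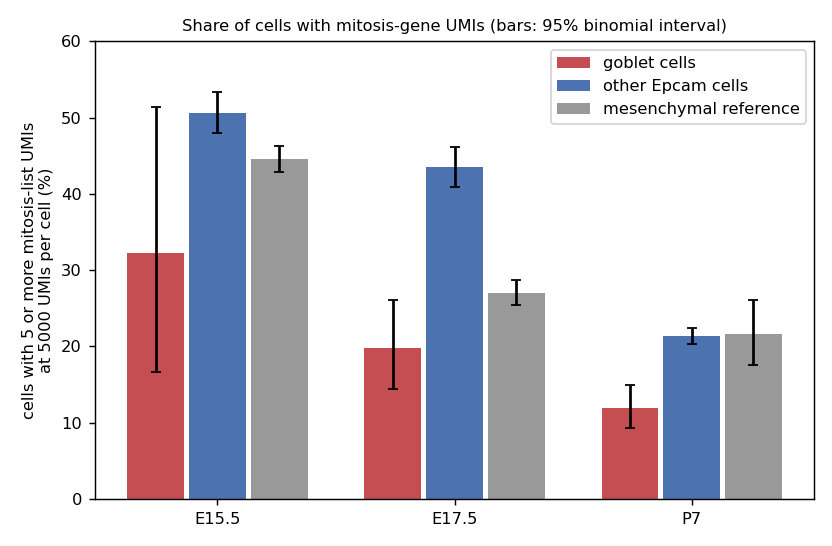
Share of cells with 5 or more mitosis-list UMIs after thinning to 5000 UMIs, by stage and population, with 95% binomial intervals. The goblet bars stand at 32.3%, 19.8% and 11.9% and lie below those of the other Epcam cells at each stage, with the widest interval at E15.5, where 31 cells were counted.

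Most fetal growth genes were lower in goblet cells at each later stage. In the first step 8 of 14 counted were lower and none higher (median -0.77), beside 8.81% and 4.29% of all genes tested. In the second 10 of 12 were lower and none higher (median -1.89), beside 9.77% and 14.6%. H19, an imprinted non-coding RNA, stood at 1486 CPM at E15.5, 362 at E17.5 and 48.7 at P7, and Igf2, the imprinted growth factor beside it, at 359 CPM at E15.5 and 82.9 at E17.5, with a log2 difference of -2.91 from there to P7. The other Epcam cells went from 2672 to 1528 and 118 CPM of H19, so in the first step the log2 value was -2.04 in goblet cells and -0.81 in the others. At E15.5, 5 of the 33 cells held 70.1% of the H19 UMIs and 60.6% of those of Igf2, and the median cell held 487 CPM of H19. Without the cells Scrublet marked, the second-step values of H19 and Igf2 were -3.61 and -3.71. With the rule read at 5000 UMIs the goblet values of H19 were -1.04 and -2.06, in place of -2.04 and -2.90.

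Goblet cells differed among themselves along more than 1 axis. Over cells thinned to 5000 UMIs, Tff3 went with Fcgbp (Spearman's rho 0.87), Muc2 (0.85), S100a6 (0.83), Lypd8 (0.80) and Clca1 (0.79) at P7 (546 cells), and with Fcgbp (0.80), Clca1 (0.75) and Muc2 (0.73) at E17.5 (197 cells). Spink4 did not follow these genes: its rho with Fcgbp was 0.02 at both stages, and with Clca1 it was -0.06 at both. It went with Rnase1, a secreted ribonuclease (0.65 at P7 and 0.46 at E17.5), with Fxyd3 (0.60 and 0.52), Ccl9 (0.46 and 0.57), Agr2 (0.44 and 0.49) and Defa24 (0.41 and 0.45). Agr2 also went with Tff3 (0.58) and Fcgbp (0.43) at P7, and with both at E15.5 (0.66 and 0.62). At E15.5 (31 cells) Tff3 went with Clca1 (0.77) and Spink4 with Defa24 (0.51), and Fcgbp and Defa24 ran opposite (-0.47). All cells of a stage share a library, the values of 1 cell share its total so that abundant products displace each other, and Muc2 and Fcgbp were used to choose the cells. The correlations are a description.

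**Figure D5:**
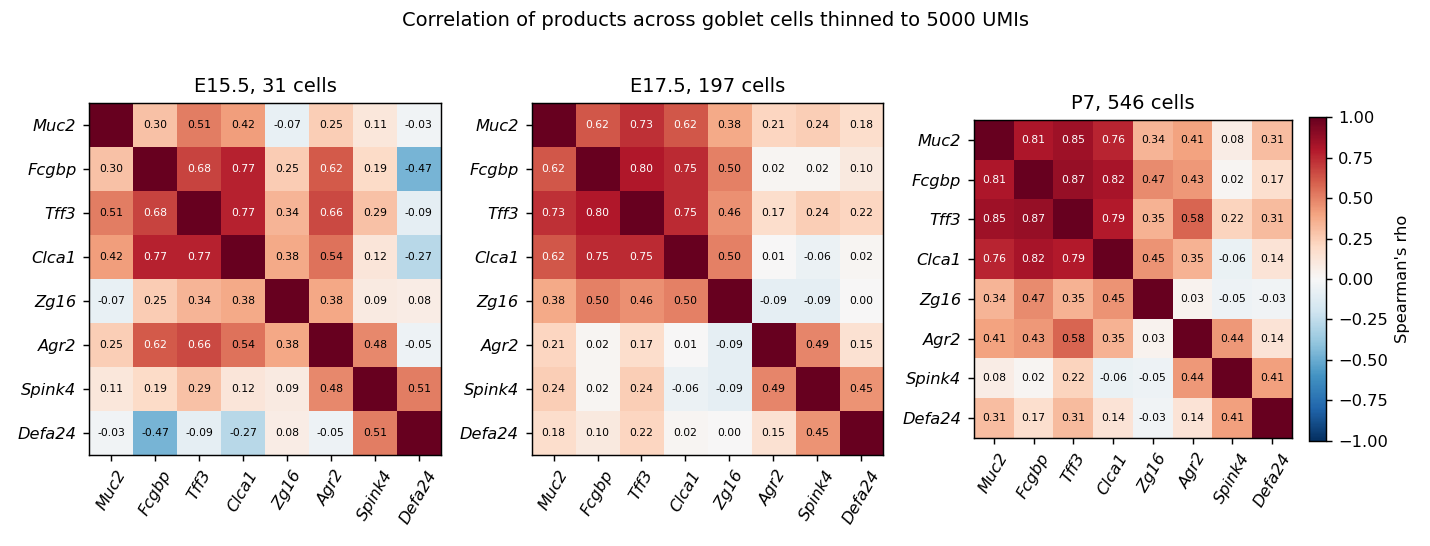
Spearman correlation of 8 products across goblet cells thinned to 5000 UMIs, 1 panel per stage with its number of cells, coloured from -1 to 1. Muc2, Fcgbp, Tff3 and Clca1 form a block of high values at E17.5 and P7. Spink4 has values of 0.41 to 0.51 with Agr2 and Defa24, and is near 0 with Fcgbp and Clca1 at E17.5 and P7.

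Between E15.5 and E17.5, 404 genes were higher and 830 lower in goblet cells, and between E17.5 and P7 1715 were higher and 1149 lower. The first split turned with the scaling. Scaled by the median gene in place of the total, 753 were higher and 354 lower. The median of the 3931 genes with 20 or more UMIs in each stage was -0.23 on the log2 scale. In the second step that median was 0.04. The 10 largest first-step rises were of 3 haemoglobin genes (Hba-a1, Hbb-bt and Hbb-bs), the muscle genes Tagln, Myh11, Des and Actg2, the fibroblast gene Dcn, the stress gene Atf3 and Gm10260, a predicted gene. Gm10260 had no UMI in goblet cells at E15.5, 198 CPM at E17.5 and 0.393 CPM at P7, and 2.40, 217 and 0.256 CPM in the other Epcam cells, so it moved in both. Hbb-bs went from 214 to 7604 CPM, but 5 of the 204 cells held 59.2% of its UMIs, and the log2 value fell to -0.10 without cells holding 10000 CPM or more of haemoglobin genes or any UMI of Ptprc, Tyrobp or Fcer1g. For the muscle genes Tagln and Actg2, 5 cells held 76.5% and 74.7%, and the values were 1.54 and 0.54 without cells holding 3 or more collagen UMIs, in place of 4.96 and 4.17. Without the cells Scrublet marked they were 2.54 and 2.01. The muscle list summed to 82 CPM at E15.5, 1402 at E17.5 and 232 at P7 in goblet cells, the fibroblast list to 266, 1191 and 419, and the erythroid list to 384, 13788 and 1032. Their part in the results above was not tested. Immune markers were also held by few cells. Gzma, a granzyme of lymphocytes, came from 4 goblet cells at E17.5 and was at 0 at the other stages. Dissociation and stress genes rose in the first step, with 13 of 16 higher (median 1.76), beside 4.29% of all genes tested in goblet cells. Among them were Atf3 (9.31 to 153 CPM) and Btg2 (134 to 464 CPM). In the other Epcam cells 10 of the 16 were higher, beside 13.1% of 14823 genes.

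The largest second-step rises included the milk-clotting protease Cym, which went from 3.00 to 424 CPM, and the crypt gene Olfm4, from 5.63 to 396 CPM, both higher still in the other Epcam cells at P7 (940.3 and 947 CPM). Of the 18 enterocyte genes 16 were higher at P7 and none lower (median 2.38), beside 14.6% and 9.77% of all genes tested. That median was 0.71 without the cells Scrublet marked. Apoa4 and Fabp2, which carry lipid in enterocytes, stood at 2854 and 2665 CPM in goblet cells at P7, 10523 and 8697 in the other Epcam cells and 283 and 214 in the mesenchymal reference. Their step values were 3.54 and 2.26 with all cells and 1.62 and 1.18 without the marked ones. For the products the marked cells moved the values by less: the second-step value of Defa24 was 1.61 (with all cells 1.45), of Zg16 1.56 (1.72), of Sct -1.60 (-1.69) and of Mptx1 -1.27 (-1.29).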

How the data were processed

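Single-cell libraries of the mouse small intestine, 1 each at E15.5, E17.5 and P7, were read from the deposited tables, which hold whole-number UMI counts per gene and cell as the authors made them. Per the submitters' processing notes, the tool was Cell Ranger 7.2.0 and the builds were mm10 and GRCm38. The sources do not state which cell filters were applied before deposit. The median depth of goblet cells ran from 10570.5 to 12837 UMIs.

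Goblet cells were chosen by UMI limits, counts were summed per stage, and ratios of summed counts were given with 95% conditional binomial intervals, levels with exact Poisson intervals and shares with Clopper-Pearson intervals. Genes needed 20 UMIs over the groups compared, and the floor for a count of 0 was 3 UMIs. The ratio step was tested on simulated data. Cells were thinned to 5000 UMIs for shares, mitotic calls and correlations. Doublets were marked with Scrublet in scanpy 1.11.5, with Python 3.11.15, numpy 2.4.6, scipy 1.17.1, pandas 2.3.3 and matplotlib 3.10.9.

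Named genes were the rule genes and markers, the highest, lowest and textbook members of each list, the 10 highest and 10 lowest ratios per step among genes with 50 UMIs or more, and the genes highest over other Epcam cells. S100a6, Rnase1, Guca2a, Cdkn1a and other genes outside this rule were chosen after their values were seen. The members and lists were chosen with earlier results of these data known. Alternatives changed the gate, doublets, mixed cells, scaling, weight of cells, minimum counts and thinning. Promoters came from RefSeq (GRCm38.p6) and gene positions from GENCODE M21.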

Additional observations from a re-analysis of the deposited data

Results flagged for a closer look

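Sct, Nupr1, Zg16 and Lyz1 moved in opposite directions in goblet cells and in the other Epcam cells over the same step. With 1 library per stage, the difference was not tested for any of them. Between E15.5 and E17.5, Nupr1, a stress-induced chromatin protein, went from 24.2 to 141 CPM in goblet cells (log2 2.54) and from 81.3 to 5.37 CPM in the other Epcam cells (log2 -3.92). The goblet level at E15.5 rests on 13 Nupr1 UMIs in 8 cells. Over the same step Sct, the hormone secretin, went from 7065 to 1855 CPM in goblet cells (log2 -1.93) and from 330.2 to 1047 CPM in the others (log2 1.66). Zg16, a mucus lectin, went from 169 to 526 CPM in goblet cells (log2 1.63) and from 2.59 to 0.195 CPM in the others (log2 -3.73, -5.39 to -2.45). At E15.5, 5 goblet cells held 94.5% of the Zg16 UMIs. Between E17.5 and P7, Lyz1, the Paneth lysozyme, went from 299.7 to 75.5 CPM in goblet cells (log2 -1.99) and from 10.1 to 74.8 CPM in the others (log2 2.89). The Defa30 limit of the goblet rule places cells rich in Lyz1 among the others, 125 of them at P7 with 3541 CPM, and without the limits on Chga, Chgb and Defa30 the goblet value was 0.091, so the direction of Lyz1 in goblet cells depends on these limits.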

How the results depend on the processing

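No paired analysis was possible because each stage is 1 library and the labels give no replicates to pair. Depth limits E15.5 most, where 33 cells gave 536896 UMIs, and UMI limits depend on the depth of a cell. The cause of the changes below was not tested.

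With the stricter rule, goblet shares of Epcam cells were 0.627%, 8.94% and 8.20%, the mitotic share at P7 was 7.58%, 195 genes were higher in the first step and 537 were lower than in the other Epcam cells at E15.5. First-step log2 values changed sign for the tuft list (-1.07), Kdelr3 (-0.045) and Sytl4 (-0.53). With the looser rule the share at E15.5 was 3.62% and the first-step median of the immune cell list was -0.51. With the rule read at 5000 UMIs the shares were 0.445%, 8.02% and 7.34%, the mitotic share was 16.7% at E15.5 and 3.81% at P7, and 108 genes were higher and 398 lower in the first step. Under that setting the first-step values changed sign for the lists of defence genes (-0.047) and immune cells (-0.84), and for St3gal1 (-1.10), Kdelr3 (-0.35), Dnajb9 (-0.26), Sytl4 (-1.15), Pigr (-0.29), Apoa4 (-1.38) and Gzma (-0.51).

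Without the cells Scrublet marked, the share at P7 was 8.76% and the second-step median of the enteroendocrine list was -1.36. Without cells holding collagen UMIs, 744 genes were lower in the second step. The next alternatives were chosen after seeing the data. Without the limits on Chga, Chgb and Defa30, the share at P7 was 11.3% and the second-step value of Lyz1 was 0.091. Without cells holding haemoglobin or immune UMIs, the first-step values of the erythroid list and Hbb-bs were -0.085 and -0.10, and the second-step median of the tuft list was 0.84.

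Scaled by the median gene, 753 genes were higher and 354 lower in the first step. By the mean of single cells, 670 were higher. With at least 100 UMIs, 230 were higher and 413 lower in the first step, 544 were lower in the second, and the enteroendocrine median was -1.69. With no minimum, 1729 were lower in the second step and the first-step tuft median was -0.51. Mitotic shares were 51.5%, 27.0% and 18.5% without thinning, 14.3% at E17.5 and 8.81% at P7 when thinned to 3000 UMIs, and 15.8% at P7 with at least 3 UMIs. Of 60 alternative counts of genes, 48 stayed within 1.5 times the reported count.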

Other observations

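Crypt stem genes were counted in goblet cells as well. Of the 4 that could be counted between E15.5 and E17.5 none passed the 1.5-fold rule. Of the 8 counted between E17.5 and P7, 6 were higher and none lower (median 1.39), beside 14.6% and 9.77% of all genes. At P7, 5 of 9 were still lower in goblet cells than in the other Epcam cells and 1 was higher (median -0.92). The shares of all genes were 16% and 13.8%. Prom1, a membrane glycoprotein of crypt cells, was the highest of the list at each stage, with log2 ratios of 1.67, 1.82 and 0.69.

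Genes of cell cycle control went both ways. At P7, 4 of 16 were higher in goblet cells than in the other Epcam cells and 4 lower, beside 13.8% and 16% of all genes. Btg2, an antiproliferative factor that dissociation also induces, had log2 ratios of 0.76, 1.60 and 1.76, and Cdkn1c, an imprinted inhibitor of cyclin-dependent kinases, of -1.73, -2.25 and -1.68. Ccnd1, a cyclin that promotes entry into the cycle, rose in goblet cells from 39.4 CPM at E17.5 to 82.3 at P7 (log2 1.06, 0.76 to 1.38).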
